A study of Rattus norvegicus with 8 samples.

Results

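Cytosolic ribosomal protein genes of the rat lung were described on 8 microarrays. Members were all probes whose RefSeq accession belonged to a rat gene named Rpl or Rps with a number, or Rplp0 to Rplp2, leaving out pseudogenes and the Rps6k kinases. The rule found 202 probes of 86 genes among 45598 probes. Of these, 194 probes of 82 genes passed the detection rule, which asks for a signal well above background on both arrays of some group, and had a value on all arrays. Each gene was represented by its brightest probe, and the 82 genes stood among 25097 features tested. They comprised 42 genes of the large subunit, 30 of the small subunit, the 3 stalk genes Rplp0, Rplp1 and Rplp2, and 7 paralogues or copy genes. Rpsa is a small subunit gene that the naming pattern did not cover, and it is given apart from the members.

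The arrays held Cy3-labelled cDNA from 200 ng of total RNA, extracted from 30 mg of male rat lung. The naive rats breathed normal air. The smoke group had 12 weeks of cigarette smoke in a chamber. The EV and MSC groups had the same smoke, and then in week 13 received into the trachea either extracellular vesicles of human umbilical cord mesenchymal stem cells (hUC-MSC-EV) or the cells themselves (hUC-MSC). A dose was about 2500000 cells, or the vesicles isolated from that number. Each of the 4 groups had 2 arrays. Vesicles and cells came from another species, and no group given smoke with a mock instillation was used here. The labels do not say that replicates were separate animals, so p-values measure only the spread between these samples, which may be technical. All 8 arrays lay on 1 slide, with each group in a column of its own, so effects of the column and of the group cannot be told apart.

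Ribosomal proteins and ribosomal RNA together form the small and large subunits of the cytosolic ribosome, which translates messenger RNA. The stalk of acidic P proteins on the large subunit recruits translation factors. Their messenger RNAs typically begin with a run of pyrimidines, the terminal oligopyrimidine tract, through which mTOR signalling controls their translation. Most are strongly expressed in every tissue, lung included. Mammalian genomes also hold many processed copies of these genes, and which copies an array probe can bind was not tested.

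The start sites of several genes whose probes are described below are shown because the pyrimidine run was the shared feature that could be read independently of the arrays. Each line gives 30 bases of the RefSeq promoter table (GRCr8), 15 on each side of an annotated start, on the strand of the gene, with the run of C and T that touches the 5 bases either side of the start in capitals where it is at least 8 bases long. Where a gene had several annotated starts, the one with the longest such run was taken, for members and other genes alike.
Rplp0, chr12:46718376-46718405, minus strand: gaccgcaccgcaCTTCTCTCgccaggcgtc
Rplp1, chr8:71290858-71290887, minus strand: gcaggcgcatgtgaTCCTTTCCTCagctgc
Rplp2, chr1:205975906-205975935, plus strand: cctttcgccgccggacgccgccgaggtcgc
Rpl36, chr9:1533765-1533794, plus strand: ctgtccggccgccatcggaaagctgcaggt
Rpl38, chr10:100200420-100200449, plus strand: cttcgTTCTTTTTCCgttgttcggtgctcg
Rpl14, chr8:129163605-129163634, plus strand: gggcgggCCCTCTCCCTTCTCgctgagcgc
Rps10, chr20:5700730-5700759, minus strand: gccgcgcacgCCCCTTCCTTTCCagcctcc
Rps2, chr10:14251833-14251862, plus strand: CCTCTTCTTTTTCTTCgggaaaacacgtga
Rpl28, chr1:78083518-78083547, minus strand: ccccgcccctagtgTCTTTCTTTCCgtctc
Rps27l, chr8:76443643-76443672, plus strand: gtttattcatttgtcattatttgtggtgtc
Of the 82 members, 66 had a window in the table and 39 of them (59.1%) held such a run, against 9.77% of 27457 genes in the table. The run was found in 21 of 34 large subunit genes, 15 of 23 small subunit genes, 2 of 3 stalk genes and 1 of 6 paralogues or copy genes. Only the strand of the gene was searched. A gene with more starts had more chances of a run, and the number of starts was not matched between members and other genes. The start taken equalled the end of the gene model for 32 of the 66 members. For the rest it can be another start, taken for its run, or lie some bases off. A window with no run says only that these letters were not in it. The members with and without a run had similar differences between smoke and naive, with medians of -0.71 and -0.64 on the log2 scale used below.

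The signal before any scaling between arrays showed what every later comparison rests on. The median processed signal of the members was 33012 and 18135 in naive, 121840 and 104012 in smoke, 38733 and 24421 after EV, and 13837 and 17882 after MSC. Probes over the whole array were also brighter in smoke, where the 75th percentile of all probes was 3235 and 2677, against 568 and 362 in naive, 762 and 483 after EV, and 246 and 256 after MSC. The members made up a like share of the summed signal of all features on every array, between 8.51% and 11.2%. The E1A spike-in controls had a mean signal of 2095 and 2554 on the smoke arrays and of 2625 to 3209 on the other 6 arrays. No spot was saturated.

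Single members differed widely in how far their own signal moved. Rpl38, a large subunit protein, read 107735 and 91179 in naive, 115007 and 117827 in smoke, 116208 and 87864 after EV, and 78668 and 87948 after MSC. Rpl36, also of the large subunit, read 87571 and 102361 in naive and 111517 and 107077 in smoke. Rpl27, another large subunit protein, read 388 and 267 in naive, 13115 and 8455 in smoke, 602 and 337 after EV, and 99.8 and 331 after MSC. The signal of Rpl27 thus spanned more than that of Rpl38 or Rpl36 between groups, and the smoke arrays lay above all others for Rpl27 while the groups lay close together for Rpl38. Rpl3, a core large subunit protein, read 14878 and 8380 in naive and 83392 and 65790 in smoke. Rps6, the small subunit protein phosphorylated downstream of mTOR, read 13315 and 5534 in naive and 79278 and 65332 in smoke.

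**Figure D1:**
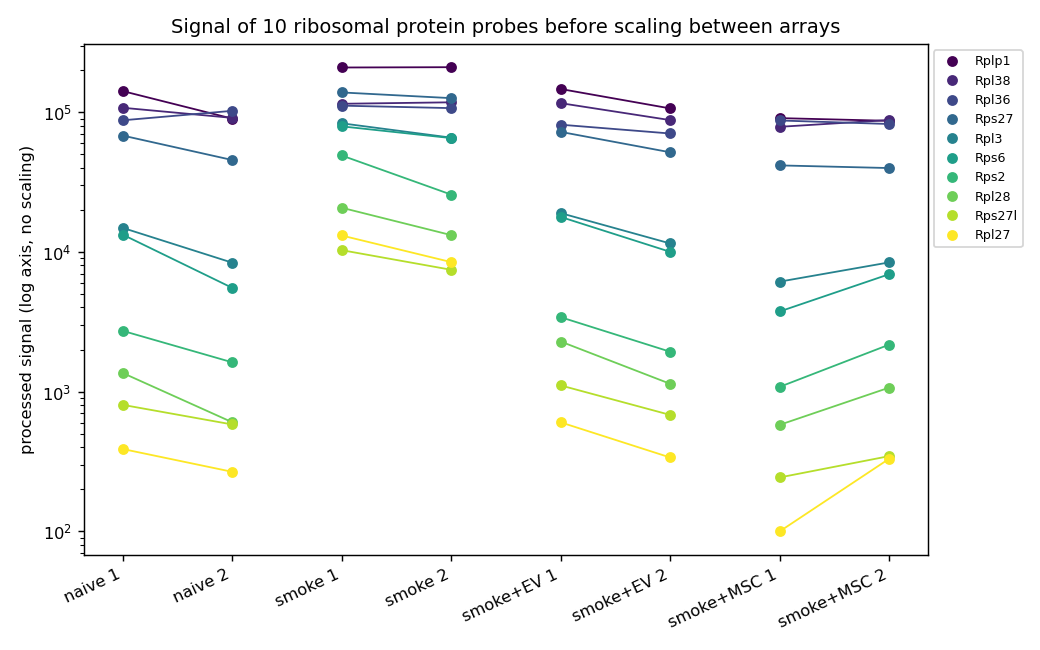
Processed signal of 10 ribosomal protein probes on each of the 8 arrays, on a log axis and with no scaling between arrays; points are arrays and lines join the 2 arrays of a group. Rpl38 and Rpl36 read at about the same signal on all arrays, while Rpl27 read 388 and 267 in naive and 13115 and 8455 in smoke.

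From here on a level is log2 of the processed signal minus log2 of the array's 75th percentile, and a difference is a difference of mean levels between groups. Because this percentile was several-fold higher in smoke, a positive difference in unscaled signal can be a negative difference in level. On this scale, the median difference between smoke and naive was -0.62 over all features. With scaling to the E1A controls it was 2.34. The direction of a typical member therefore turned with the scaling, and only the differences among members and those named as keeping their sign held under both.

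Smoke was compared with naive to ask how 12 weeks of smoke changed the lung. On the percentile scale 30 of 82 members were called lower and 5 higher at an adjusted p under 0.05 (limma, Benjamini-Hochberg over 25097 features), where 35.4% of all features were called lower and 12.1% higher. The members' median difference was -0.58, beside -0.62 for all features, so on this scale their median lay near that of the array. The called share was 42.7%, against 47.5% of all features. Scaled to the E1A controls, 78 members were higher and 0 lower, with a median of 2.39, where 82.7% of all features were higher. The median was 0.43 with quantile normalization and 0.34 with cyclic loess, beside -0.11 and -0.077 for all features. With these 2 scalings the members' median thus had the opposite sign to that of all features. On the percentile scale, 16 of 42 large subunit genes were lower and 2 higher, and 10 of 30 small subunit genes were lower and 2 higher. The counts rested on few arrays. Shares of all features called without an array are not given, here or for the treatments, so such counts do not set the members apart from the array. Without smoke replicate 1 there were 0 higher and 12 lower. The number higher was 2 without naive replicate 1, 1 without naive replicate 2, and 3 without smoke replicate 2 or without either EV array. It was 9 without either MSC array.

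The 3 stalk genes were all lower in smoke on the percentile scale. Rplp0 stood at 7.95 and 7.71 in naive, 6.50 and 6.61 in smoke, 7.64 and 7.74 after EV, and 8.53 and 8.52 after MSC. Rplp1 stood at 7.96 and 7.96, 6.01 and 6.30, 7.59 and 7.79, and 8.53 and 8.40 in the same order. Rplp2 stood at 7.99 and 8.08, 6.10 and 6.30, 7.53 and 7.78, and 8.83 and 8.40. The smoke arrays were the lowest and the MSC arrays the highest for all 3, with no overlap of either group with the others. With 2 arrays a group this was common. Of 25097 features, 13878 were lower in smoke than in naive without overlap, and 13784 were higher after MSC than in smoke. Smoke minus naive was -1.27 (SE 0.26, limma adjusted p = 0.00752) for Rplp0, -1.81 (SE 0.27, limma adjusted p = 0.00286) for Rplp1 and -1.83 (SE 0.29, limma adjusted p = 0.00324) for Rplp2. The E1A scaling turned these to 1.69, 1.16 and 1.13, and quantile normalization gave 0.59, -0.13 and -0.077, none of the latter called. Rplp0 lost its call without smoke replicate 1 (-1.22, limma adjusted p = 0.0591).

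Rpl36 and Rpl38 of the large subunit had the lowest differences of all members. Rpl36 stood at 7.27 and 8.14 in naive, 5.11 and 5.32 in smoke, 6.74 and 7.19 after EV, and 8.47 and 8.33 after MSC. Rpl38, known for its role in the translation of Hox messages, stood at 7.57 and 7.98, 5.15 and 5.46, 7.25 and 7.51, and 8.32 and 8.42. The smoke arrays were lowest for both genes, by more than the spread within any group. Smoke minus naive was -2.49 (SE 0.36, limma adjusted p = 0.00277) for Rpl36 and -2.47 (SE 0.29, limma adjusted p = 0.00216) for Rpl38. Both stayed called with quantile normalization, at -1.49 and -1.34, and with cyclic loess, at -1.32 and -1.28. The E1A scaling gave 0.47 and 0.50, with neither called, so on that scale they were the members that moved least.

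Among the 5 lowest differences on the percentile scale were also Rplp2, Rplp1 and Rps10, a small subunit protein, at -1.63 (SE 0.30). Rps27, a small subunit protein with a zinc finger, stood at 6.91 and 6.97 in naive and 5.42 and 5.56 in smoke, and its difference was -1.45 (SE 0.26, limma adjusted p = 0.00477). Rps27a, which is made as a fusion with ubiquitin, had -1.27 (SE 0.25, limma adjusted p = 0.00692) and lost its call without smoke replicate 1 (-1.19, limma adjusted p = 0.0583). The E1A scaling turned Rps10, Rps27 and Rps27a to 1.33, 1.51 and 1.69. None of the 3 was called with quantile normalization or cyclic loess.

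Rpl27, Rpl28, Rps2 and Rps27l were among the 5 members called higher in smoke, and these 4 kept that sign under all 5 scalings tried. Rpl27 stood at -0.55 and -0.44 in naive, 2.02 and 1.66 in smoke, -0.34 and -0.52 after EV, and -1.30 and 0.37 after MSC. Rps2, a small subunit protein near the entry of the message, stood at 2.26 and 2.16, 3.92 and 3.27, 2.16 and 2.00, and 2.14 and 3.08. Rps27l, a paralogue of Rps27 that p53 can induce, stood at 0.50 and 0.68, 1.67 and 1.48, 0.54 and 0.50, and -0.017 and 0.43. The smoke arrays were above all others for each of these 3 genes. Of 25097 features, 6053 were higher in smoke than in naive without overlap. Smoke minus naive was 2.34 (SE 0.51, limma adjusted p = 0.00905) for Rpl27, 1.38 (SE 0.39, limma adjusted p = 0.0232) for Rps2 and 0.98 (SE 0.28, limma adjusted p = 0.0252) for Rps27l. Rpl28 had 1.49 (SE 0.38, limma adjusted p = 0.0157). Scaled to E1A, these were 5.30, 4.34, 3.94 and 4.45. Each lost its call on the percentile scale without smoke replicate 1, where Rpl27 had 2.16 (limma adjusted p = 0.0652), Rps2 1.05 (0.152), Rps27l 0.88 (0.141) and Rpl28 1.30 (0.104) as difference and adjusted p. Rps2 also lost it without naive replicate 1 (1.43) or 2 (1.33), and Rpl28 without naive replicate 2 (1.23). Rps27l also lost it without any other naive, smoke or EV array, at differences of 0.89 to 1.08.

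Other members with well-known roles were not called on the percentile scale. Rpl5 and Rpl11, which bind Mdm2 when ribosome assembly is disturbed, had differences of -0.40 (SE 0.29) and -0.24 (SE 0.29). Rps19 and Rps14, whose partial loss in people causes anaemia, had 0.013 (SE 0.38) and -0.57 (SE 0.28). Rpl10 had 0.18 (SE 0.32), Rpl39, a small protein of the exit tunnel, -0.16 (SE 0.30), Rpl7 -0.76 (SE 0.27), and Rps3, a small subunit protein that also acts in DNA repair, 0.78 (SE 0.34). Rps3 was called higher with quantile normalization (1.54), cyclic loess (1.58), centring on the median member (1.27) and normexp (0.97). When kept probes were averaged by gene, Rps3 at 0.99 and Rps19 at 1.48 were called higher. Rpl7 was called lower with normexp, at -0.61. Rpl3 had 0.032 (SE 0.27) and Rps6 0.37 (SE 0.37), beside the median of -0.62 over all features. The paralogue pair Rpl22 and Rpl22l1 had -0.66 (SE 0.29) and -0.50 (SE 0.26), while the other pair, Rps27 and Rps27l, stood at opposite ends with -1.45 and 0.98. The E1A scaling gave positive values for all of these genes, from 0.47 to 5.30 over the 82 members. Rpl6, among the 5 highest differences, had 1.13 (SE 0.43) and was not called (limma adjusted p = 0.0602) on the percentile scale. It was called at 1.76 with quantile normalization, 1.84 with cyclic loess, 1.63 with centring on the median member, 4.09 with E1A scaling and 1.27 with normexp. It was also called at 1.13 with probes detected on all 8 arrays and without either MSC array.

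**Figure D2:**
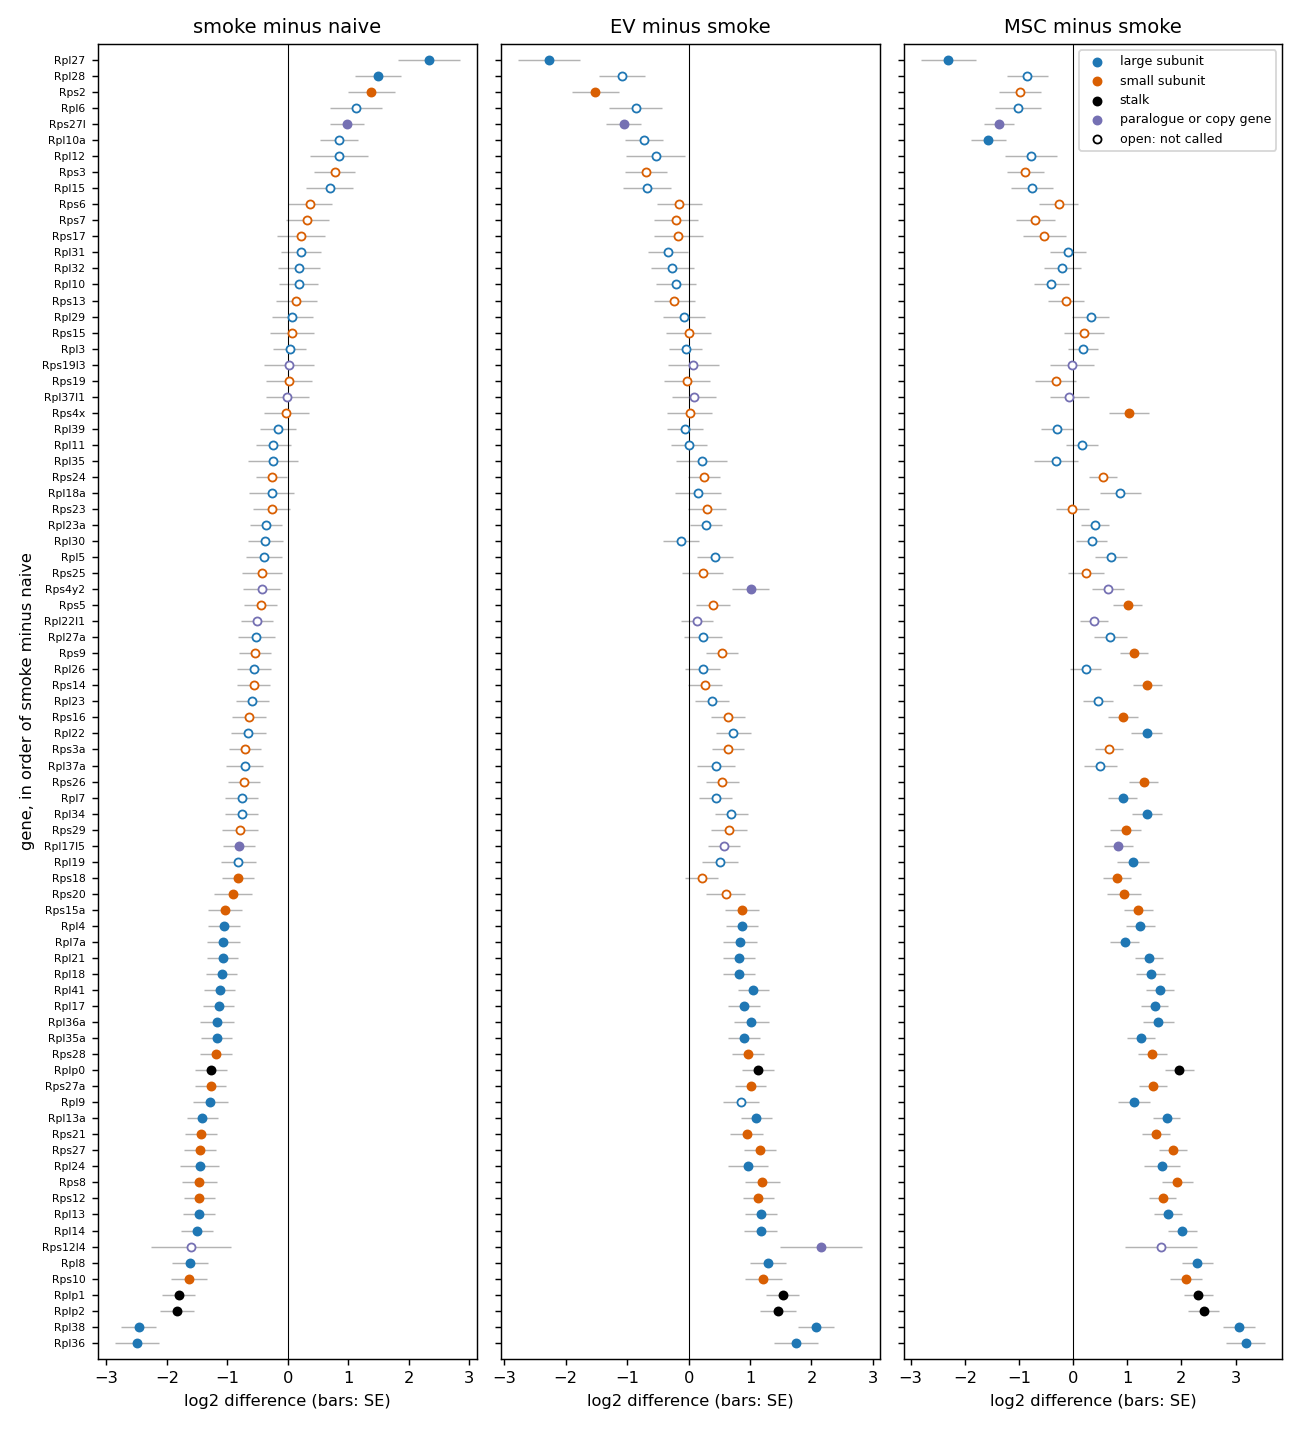
Log2 differences of 81 of the 82 members in 3 comparisons on the percentile scale, in the order of smoke minus naive; bars are standard errors from limma, filled points have an adjusted p under 0.05, open points do not. The E1A scaling moves all points of smoke minus naive above 0 and all points of EV minus smoke and MSC minus smoke below 0, and leaves the order within a panel as it is. The 2 panels on the right share the smoke arrays with the left one.

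The order of the members followed the brightness of their probes, and this order does not depend on a shift of a whole array. Across the 82 members, smoke minus naive and mean level had a Pearson r of -0.54 and a Spearman rho of -0.76, so bright probes lay lower and dim ones higher. Across all 25097 features the same values were -0.032 and 0.002. With features cut into 10 bands by mean level, band 10, the brightest, held 76 of the 82 members. The features' median difference was -0.27 in band 1, the dimmest. It rose from -0.97 in band 2 to -0.37 in band 8, and fell to -0.59 in band 9 and -0.82 in band 10. From band 8 on, brighter features in general thus also lay lower. Whether members differed from features of like brightness was not tested. The relation among members had a rho of -0.62 with cyclic loess, -0.37 with quantile normalization and -0.74 with normexp background correction. Over all features these were -0.064, -0.14 and 0.51, so how far the members departed from the rest depended on the processing. It is a description across genes that share 8 arrays, and it carries no p-value. Because a mean level contains the arrays compared, the 2 axes are not independent. Brightness is a property of a probe as well as of its gene, so it gives no order of abundance among genes.

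The spread among members within an array, which a shift of the whole array leaves unchanged, was smaller in smoke. The interquartile range of the 82 levels was 2.19 and 2.39 in naive, 1.16 and 1.26 in smoke, 1.97 and 2.31 after EV, and 2.87 and 2.28 after MSC. Both smoke arrays were below the other 6. The median of the 20 brightest members lay above that of the 20 dimmest by 4.40 and 4.69 in naive, 1.90 and 2.46 in smoke, 4.04 and 4.07 after EV, and 5.23 and 4.09 after MSC. Brightest and dimmest were ranked by mean level over all arrays, most of them outside the smoke group. A smaller gap on the smoke arrays is therefore partly built in, and how large that part is was not tested. The SD of the members fell less than their interquartile range. It was 2.24 and 2.28 in naive, 1.84 and 1.87 in smoke, 2.03 and 2.20 after EV, and 2.45 and 2.29 after MSC. The SD of all features, most of them far dimmer than the members, was 2.88 and 2.89 in naive and 3.05 and 2.95 in smoke. Whether the array reading of bright probes was compressed at the high total signal of the smoke arrays was not tested. The brightest member read 418547 and 382702 on the smoke arrays, and at most 219598 on the other 6.

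**Figure D3:**
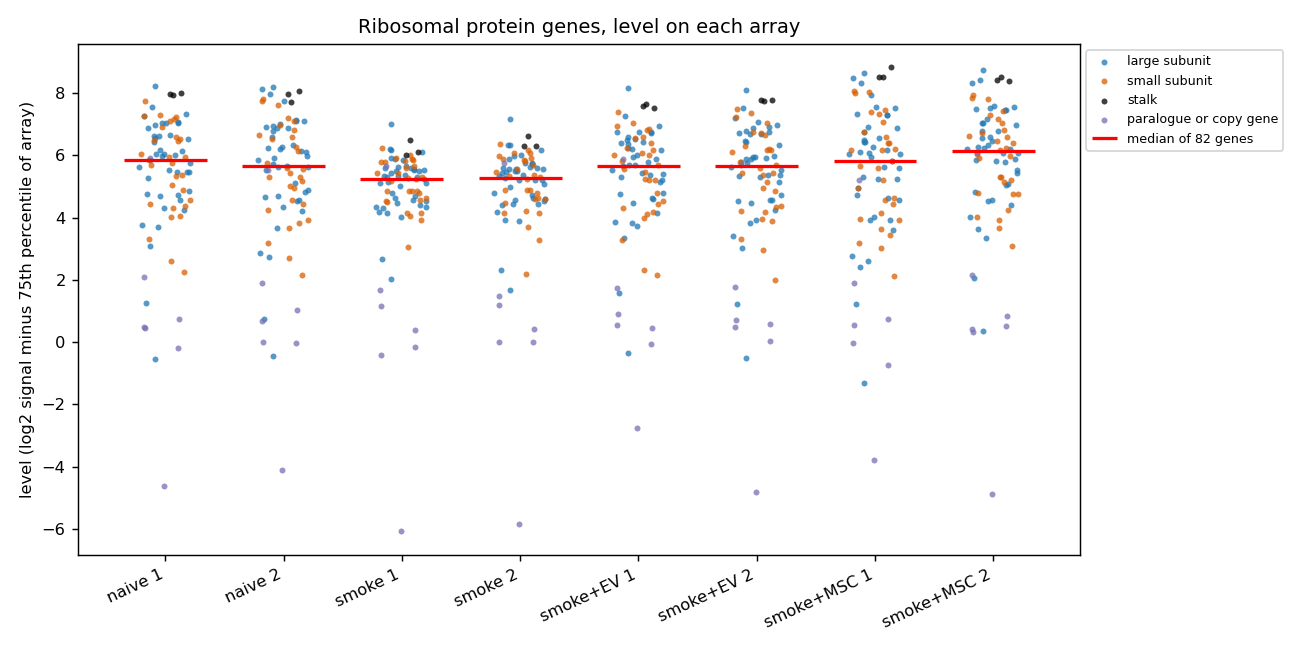
Level of each of the 82 members on each array (log2 signal minus the array's 75th percentile), coloured by class, with the median as a red bar. The points of the 2 smoke arrays lie closer together than those of the other arrays, with an interquartile range of 1.16 and 1.26 against 1.97 to 2.87; the smoke medians lie lowest here, and highest with the E1A scaling.

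Different probes of 1 gene were also set against brightness. Of the members, 56 genes had 2 or more kept probes, 168 probes in all. The brightest probe of a gene had a lower smoke minus naive difference than the dimmest in 45 of 56 genes. Where the probes of a gene spanned at least 3 log2 units in mean level, this held in 17 of 20 genes. The probes of a gene share their arrays and their gene, so these counts are a description. Within genes the correlation of difference and level was -0.61 over the 168 probes. Counted by probe, 29 of 194 were higher and 58 lower in smoke, where 46.5% of all kept probes on the array were called in either direction, so a gene's call depended on which of its probes was taken.

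Rps10 shows this most plainly, with 5 kept probes. Its brightest probe stood at 7.26 and 7.75 in naive and 5.78 and 5.97 in smoke. Its dimmest stood at -0.40 and -0.62 in naive and 1.65 and 1.15 in smoke. The first was called lower (-1.63, limma adjusted p = 0.00525 in the fit over probes) and the second higher (1.91, limma adjusted p = 0.0149). The probes of Rpl14, a large subunit protein, likewise gave -1.50 for the brightest, at 6.87 and 6.90 in naive and 5.33 and 5.44 in smoke, and 1.91 for the dimmest, at 0.98 and 0.99 in naive and 3.27 and 2.52 in smoke. Rpl21 had -1.08 and 1.92, and Rps18 had -0.82 and 2.14. These 4 genes were the only members with probes called in both directions in smoke against naive. Rpl29 had a brightest probe at 0.075, not called, and a dimmest at 3.39, and Rpl5 had -0.40 and 2.22. Rpl36 and Rpl38 were lower by all 3 of their probes each, with -2.49 and -1.08 for the brightest and dimmest probe of Rpl36 and -2.47 and -0.90 for those of Rpl38, the last of them not called. Rpl36a ran the other way, at -1.17 for the brightest probe and -3.36 for the dimmest. With the E1A scaling the differences in this paragraph all rise by the same amount, and the gap between the probes of a gene is unchanged.

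**Figure D4:**
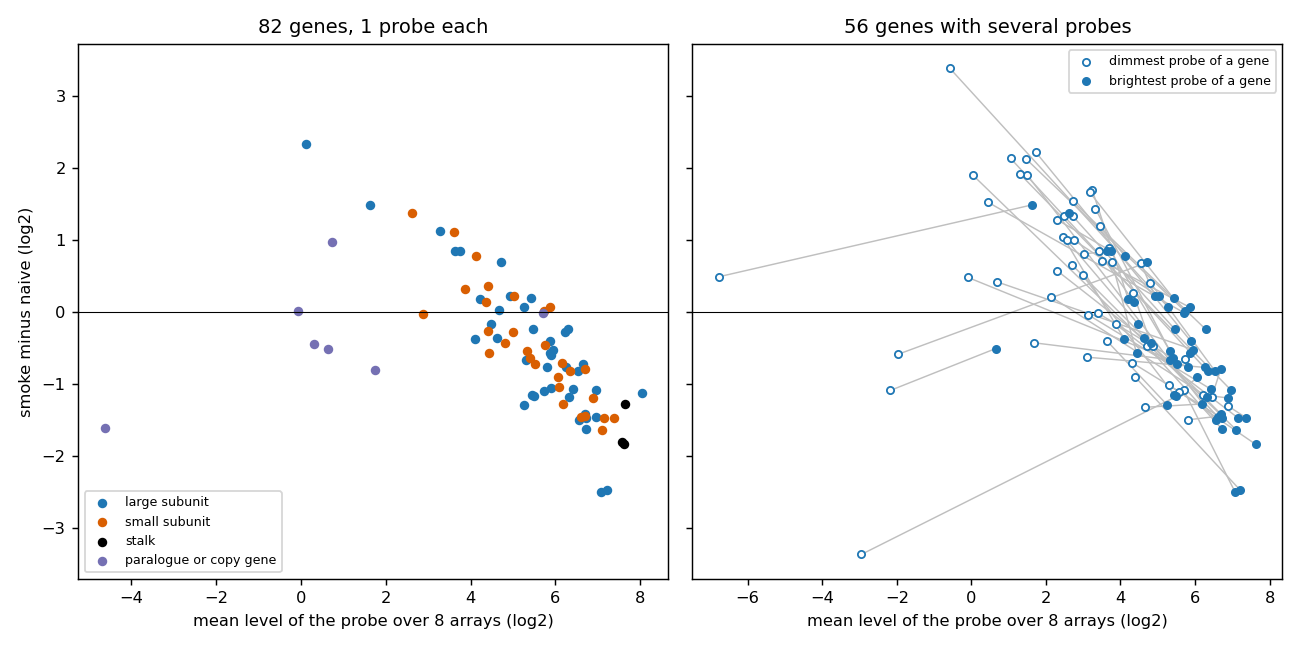
Smoke minus naive (log2, percentile scale) against the mean level of the probe over 8 arrays, for the 82 members on the left and for the brightest and dimmest kept probe of 56 genes on the right, where a line joins the probes of 1 gene. Brighter probes lie lower; the E1A scaling would move every point up by the same amount, so that none of the points on the left would be below 0.

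EV and MSC were each compared with smoke to ask what the treatments changed after smoke. Both comparisons use the same 2 smoke arrays as smoke against naive, so opposite signs in them are built in. In EV against smoke, 28 members were higher and 4 lower (limma), where 29.9% of all features were higher, 9.97% lower and 39.8% called in all, and the members' median was 0.43 beside 0.55 for all features. In MSC against smoke, 41 were higher and 3 lower, where 43.3% of features were higher, 16.4% lower and 59.7% called in all, and the medians were 0.86 and 0.74. The E1A scaling gave 0 higher and 77 lower after EV, where 73.2% of features were lower, and 0 higher and 80 lower after MSC, where 87.9% were lower. Quantile normalization turned the members' medians to -0.36 and -0.57, beside 0.12 and 0.017 for all features. Cyclic loess gave -0.43 and -0.30, beside 0.055 and -0.0070 for all features.

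In EV against smoke the 5 highest differences were those of Rps12l4, Rpl38, Rpl36, Rplp1 and Rplp2. EV minus smoke was 2.07 (SE 0.29, limma adjusted p = 0.00433) for Rpl38, 1.75 (SE 0.36, limma adjusted p = 0.0101) for Rpl36, 1.53 (SE 0.27, limma adjusted p = 0.0062) for Rplp1 and 1.45 (SE 0.29, limma adjusted p = 0.0087) for Rplp2. Rplp0 had 1.13 (SE 0.26, limma adjusted p = 0.0142). With the E1A scaling these 5 were -0.41, -0.73, -0.95, -1.03 and -1.35. None of the 3 stalk genes was called with quantile normalization, at 0.18 for Rplp1, -0.0049 for Rplp2 and -0.42 for Rplp0, or with cyclic loess, at 0.48, 0.39 and 0.065. Rpl38 stayed called with both, at 1.27 and 1.06, and Rpl36 with quantile normalization at 0.97 but not with cyclic loess at 0.75. Rpl27, Rps2, Rpl28 and Rps27l were among the 5 lowest. Rpl27 had -2.27 (SE 0.51, limma adjusted p = 0.0129), Rps2 -1.51 (SE 0.39) and Rps27l -1.06 (SE 0.28), all called, and Rpl28 -1.08 (SE 0.38, limma adjusted p = 0.0541). With quantile normalization and cyclic loess these 4 were called lower, Rpl28 included, at -1.54 with either. The counts fell without any smoke or EV array. There were 1 higher and 0 lower without smoke replicate 1, 12 and 2 without smoke replicate 2, 7 and 1 without EV replicate 1, and 2 and 0 without EV replicate 2. There were 28 and 3 without either naive array, and 28 and 7 without either MSC array. Among the other listed proteins described for their known roles, Rps27 at 1.17 (SE 0.26) and Rps27a at 1.01 (SE 0.25) were called higher, though not with quantile normalization (0.29 and 0.23) or cyclic loess (0.22 and 0.11). The rest of those listed were not called on the percentile scale and lay between Rps3 at -0.69 (SE 0.34) and Rpl22 at 0.73 (SE 0.29). Rps3 was called lower with quantile normalization (-1.31), cyclic loess (-1.38), centring on the median member (-1.09) and normexp (-0.82). Rps19 was called lower when kept probes were averaged by gene, at -1.60. On the E1A scale all of these listed proteins were negative.

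Rps12l4, a copy of Rps12, was the dimmest member kept. It stood at -4.63 and -4.10 in naive, -6.08 and -5.84 in smoke, -2.77 and -4.83 after EV, and -3.78 and -4.90 after MSC, and was well above background on 7 of 8 arrays. Its EV minus smoke difference of 2.16 (SE 0.67, limma adjusted p = 0.0369) was 1.13 without EV replicate 1 and then not called (limma adjusted p = 0.167). Just outside the rule were Rpl3l, a muscle paralogue of Rpl3, and the copies Rpl27l2, Rpl39l1 and Rpl39l5, whose mean levels were between -7.61 and -6.41 and whose probes were well above background on at most 1 array.

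In MSC against smoke the 5 highest differences were those of Rpl36, Rpl38, Rplp2, Rplp1 and Rpl8. MSC minus smoke was 3.19 (SE 0.36, limma adjusted p = 0.000399) for Rpl36, 3.07 (SE 0.29, limma adjusted p = 0.000255) for Rpl38, 2.41 (SE 0.29, limma adjusted p = 0.00047) for Rplp2 and 2.31 (SE 0.27, limma adjusted p = 0.000423) for Rplp1. Rpl8 had 2.30 (SE 0.29) and Rplp0 1.96 (SE 0.26). On the E1A scale these 6 were -0.83, -0.95, -1.61, -1.71, -1.72 and -2.06. Rpl36 and Rpl38 stayed called higher with quantile normalization, at 1.43 and 1.27, while Rplp2 at -0.042, Rplp1 at 0.042, Rpl8 at 0.67 and Rplp0 at -0.48 were not called. With cyclic loess Rplp0 lost its call, at 0.45, and the other 5 kept theirs, at 0.82 to 1.79. The 3 members called lower were Rpl27 at -2.31 (SE 0.51, limma adjusted p = 0.00604), Rpl10a, a large subunit protein, at -1.56 (SE 0.32, limma adjusted p = 0.00419), and Rps27l at -1.37 (SE 0.28, limma adjusted p = 0.00464). Those 3 were lower under every scaling. Rpl6 at -1.02 (SE 0.43) and Rps2 at -0.98 (SE 0.39) completed the 5 lowest and were not called on the percentile scale. Both were called lower with quantile normalization, at -1.81 and -1.74, and with cyclic loess, at -1.79 and -1.65. The same held for centring on the median member, at -1.74 and -1.70, and for normexp, at -1.28 and -1.21. Rpl22 was called higher at 1.36 (SE 0.29) and Rps14 at 1.37 (SE 0.28), but not Rpl22l1 at 0.39 (SE 0.26), and the first 2 were not called with quantile normalization, at 0.13 and 0.41, or with cyclic loess, at 0.28 and 0.44. Rps27 at 1.85 (SE 0.26), Rps27a at 1.47 (SE 0.25) and Rpl7 at 0.91 (SE 0.27) were called higher. They were not called with quantile normalization, at 0.28, 0.13 and -0.40, or with cyclic loess, at 0.54, 0.24 and -0.25. The rest of the listed proteins described for their known roles lay between Rps3 at -0.88 (SE 0.34) and Rpl5 at 0.70 (SE 0.29), with no call on the percentile scale. Rps3, Rps6, Rps19, Rpl10 and Rpl39 were called lower with quantile normalization, at -1.89, -1.34, -1.84, -1.32 and -1.31. They were also called lower with cyclic loess, at -1.77, -1.20, -1.47, -1.31 and -1.25, and with centring on the median member. Rpl3 at -0.93 and Rpl11 at -1.16 were called lower with quantile normalization. All of these listed proteins were negative on the E1A scale. Rpl7 lost its call without either smoke array, at 0.93 and 0.90, and without MSC replicate 2, at 0.84. The number lower was 15 without MSC replicate 2.

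For several members the MSC arrays lay well apart. Rpl27 was -1.30 on MSC replicate 1 and 0.37 on replicate 2, and Rps19 was 4.95 and 6.05. Rps6 was 3.93 and 4.76, against 4.62 and 4.61 on the smoke arrays, so that MSC and smoke overlapped for Rps6.

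The treated groups were compared with each other and with naive. EV against MSC had 0 members called by limma, where 7.14% of features were called. An unadjusted limma p under 0.05 was found for 17 of 82 members and for 7777 of 25097 features. With the E1A scaling 26 members were called, all higher after EV, where 40.7% of features were higher. There were 9 called with normexp, 5 with probes detected on all 8 arrays, and 0 with quantile normalization or cyclic loess. Shares of all features called in these settings are not given, so these counts do not set the members apart from the array. The stalk genes read lower after EV than after MSC by 0.78 to 0.96 on the percentile scale and were not called. Their arrays did not overlap, as was so in that direction for 10418 of 25097 features. EV against naive had 0 members called by limma, and 0 of all features were called. An unadjusted p under 0.05 was found there for 0 members and for 1068 of 25097 features. MSC against naive had 0 members called by limma, where 0.00398% of features were called. An unadjusted p under 0.05 was found there for 5 members and for 5504 of 25097 features. The members' median was -0.14 in the first of these comparisons and 0.18 in the second, beside -0.061 and 0.23 for all features. With the E1A scaling they were 0.33 and -0.88, with 0 called in either. Smoke minus naive and EV minus MSC share no array, and across the 82 members they had a Pearson r of 0.60 and a Spearman rho of 0.66, both measured over the same probes and so with the same brightness.

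Genes that act with the ribosome gave a background for these values. Rpsa, the small subunit protein also known as laminin receptor, had a smoke minus naive difference of -2.28 (SE 0.28, limma adjusted p = 0.00219), which would place it next to Rpl38. Scaled to E1A it was 0.69. Fau, made as a fusion of a ubiquitin-like protein with Rps30, had -0.95 (SE 0.27, limma adjusted p = 0.0247). Rack1, a scaffold on the small subunit, was dim like Rpl27 and had 2.48 (SE 0.52, limma adjusted p = 0.00789), and -2.64 and -2.27 after EV and MSC against smoke. Rack1 was higher in smoke under the E1A scaling too, at 5.44.

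The lists of the translation pathway were read by count and median only, beside the 12.1% of all features higher, 35.4% lower and 47.5% called in smoke against naive, and the median of -0.62. Of 35 initiation factors measured out of 37 listed, 13 were higher and 4 lower in smoke, with a median of 0.10. Eif1ax, which helps to find the start codon, had 2.37 (limma adjusted p = 0.00252), and Eif3l, an eIF3 subunit, 3.35. Of 8 elongation factors, 2 were higher and 2 lower, with a median of -0.55. Eef2, the translocase, had 1.94 and Eef1a2, the muscle and neuron form of eEF1A, -2.12. Of 30 ribosome biogenesis genes out of 31 listed, 5 were higher and 11 lower, with a median of -0.56. Ubtf, which activates ribosomal RNA genes, had -2.54, and Polr1b, the second largest subunit of RNA polymerase I, 3.14. Of 13 genes of mTOR and of tract control out of 15 listed, 3 were higher and 2 lower, with a median of -0.43. Of 68 mitochondrial ribosomal proteins, 15 were higher and 16 lower, with a median of 0.10, beside -0.58 for the cytosolic ones, and that difference was not tested. The share called in either direction was 48.6% of the initiation factors, 53.3% of the biogenesis genes, 38.5% of the mTOR and tract genes and 45.6% of the mitochondrial ribosomal proteins. These totals were near that of all features, but the split by direction need not be. Among all features far more were called lower than higher, while more initiation factors were called higher than lower. Among the mitochondrial ribosomal proteins the 2 counts were about equal. These splits were not tested. With the E1A scaling none of the genes of these lists was lower, and the medians were between 2.40 and 3.07.

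The summed levels of cell type markers also differed between groups on the percentile scale. In bulk tissue, fewer cells of a type and less RNA per cell cannot be told apart. Of 10 lung epithelial markers, 3 were lower and 0 higher in smoke, where 35.4% of all features were lower, and with the E1A scaling 9 were higher and 0 lower. Their summed level was 10.5 to 10.9 in naive, 9.26 to 9.32 in smoke, 10.3 to 10.5 after EV and 10.005 to 10.8 after MSC, so the tissue label fitted its markers. The brightest of them on all arrays, Sftpc, weighs most in the sum and had a smoke minus naive difference of -2.23 and an MSC minus smoke difference of 1.93. In MSC against smoke 2 epithelial markers were higher and 2 lower, the latter being Aqp5 at -1.70 and Napsa at -1.44, and the median was -0.098. For the 6 red cell markers measured of 8, the summed level was 9.04 to 9.36 in naive, 7.07 to 7.11 in smoke, 8.77 to 8.84 after EV and 9.75 to 10.4 after MSC. This sum too is weighted to its brightest markers. In smoke minus naive 3 of the 6 lay above 0 and 3 below, with a median of -0.14. The median was -0.049 in MSC minus smoke, again with 3 above and 3 below. For 7 of 10 heart muscle markers it was 1.11 to 1.36 in naive and 0.46 to 0.62 in smoke, but 5.10 on EV replicate 1 and 6.28 on MSC replicate 2 against 1.25 and 1.81 on the other array of each group. Without EV replicate 1 the members' median in EV against smoke was 0.46, and without MSC replicate 2 that in MSC against smoke was 0.73. For 8 of 11 lymphocyte markers the summed level was 1.35 to 1.52 in naive, 0.90 to 1.81 in smoke, 0.82 to 1.26 after EV and 1.81 to 3.29 after MSC. Of these 8, 6 lay above 0 and 2 below in smoke minus naive, with a median of 0.73. For 3 of 7 cartilage markers the summed level was -2.35 in naive, -4.21 to -3.85 in smoke, -2.51 to -2.38 after EV and -2.21 to -1.64 after MSC. The part of these cell types in the members' differences was not tested.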

How the data were processed

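The authors deposited 1 scanner output of Agilent Feature Extraction per array, with intensity values per spot: the processed signal, background-subtracted and spatially detrended, per the file headers, and the median pixel of spot and local background. No normalization between arrays is recorded in them, and further steps by the authors are not given here.

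After removal of control and outlier spots, a probe's level was log2 of its mean processed signal over spots, less log2 of the array's 75th percentile over spots. Symbols came from a RefSeq gene table (GRCr8) through unversioned accessions, which matched 21215 probes. The share of probes detected was 48.1% to 71.3% per array. The test was limma 3.58.1 in R 4.3.3, with 4 group means over 8 arrays and 4 residual and 3.57 prior degrees of freedom. Adjustment was by Benjamini-Hochberg, at 0.05, within each of 6 comparisons. All p-values are 2-sided. The fit was tested on simulated data. Figures were drawn with matplotlib 3.10.9 in Python 3.11.15.

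Alternatives were E1A scaling (7 control probes), quantile normalization, cyclic loess, centring on the median member, normexp with an offset of 50, other filters and probe rules, a replicate block, and leaving out each array. Named genes were 23 listed ribosomal proteins, of which those measured are given (Rpl10l, Rpl39l and Rpl7l1 had no matched probe), and the 5 highest and 5 lowest differences in each of the first 3 comparisons. Genes named for their probes, start sites or outside the pattern were chosen after their values were seen. The members and lists were chosen with earlier results of these data known. Protein and probe sequences were not used here, and 2 genes that the rules above would name are not reported here.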

Additional observations from a re-analysis of the deposited data

How the results depend on the processing

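Counts of members past the threshold and medians depended on the scaling between arrays. Shares of all features called are given here only for the percentile scale, the E1A scale and the count by probe. Under the other settings the counts alone do not set the members apart from the array. In smoke against naive, EV against smoke and MSC against smoke, the medians of all features were 2.34, -1.93 and -3.28 with E1A scaling. They were -0.11, 0.12 and 0.017 with quantile normalization, and -0.077, 0.055 and -0.0070 with cyclic loess. With scaling to the E1A controls, the counts were 78 higher and 0 lower with a median of 2.39 in smoke against naive, 0 higher and 77 lower with a median of -2.05 in EV against smoke, and 0 higher and 80 lower with a median of -3.16 in MSC against smoke. EV against MSC then had 26 members called. With quantile normalization, the counts were 13 higher and 2 lower with a median of 0.43 in smoke against naive, 2 higher and 10 lower with a median of -0.36 in EV against smoke, and 2 higher and 33 lower with a median of -0.57 in MSC against smoke. With cyclic loess, the counts were 9 higher and 2 lower with a median of 0.34 in smoke against naive, 1 higher and 7 lower with a median of -0.43 in EV against smoke, and 5 higher and 22 lower with a median of -0.30 in MSC against smoke. With each array centred on its median member, the counts were 10 higher and 9 lower with a median of -0.081 in smoke against naive, 3 higher and 8 lower with a median of 0.026 in EV against smoke, and 14 higher and 16 lower with a median of 0.14 in MSC against smoke. With normexp background correction, the counts were 10 higher and 34 lower with a median of -0.45 in smoke against naive, 29 higher and 9 lower with a median of 0.32 in EV against smoke, and 41 higher and 13 lower with a median of 0.61 in MSC against smoke. EV against MSC then had 9 members called. Averaging the kept probes of each gene, the counts were 9 higher and 23 lower with a median of -0.27 in smoke against naive, 21 higher and 7 lower with a median of 0.17 in EV against smoke, and 28 higher and 8 lower with a median of 0.37 in MSC against smoke. With each of 194 kept probes counted for itself, the counts were 29 higher and 58 lower with a median of -0.37 in smoke against naive, 50 higher and 22 lower with a median of 0.24 in EV against smoke, and 79 higher and 30 lower with a median of 0.37 in MSC against smoke. EV against MSC then had 1 probe called. Without the filter on dim probes, EV against smoke had 14 members higher and 1 lower. With probes detected on all 8 arrays, MSC against smoke had 6 members lower and EV against MSC had 5 called.

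Values of single named genes, as log2 differences, follow where their sign turned; the cause was not tested. Smoke minus naive changed sign with E1A scaling for Rplp0 1.69, Rplp1 1.16, Rplp2 1.13, Rps14 2.40, Rps27 1.51, Rps27a 1.69, Rpl5 2.57, Rpl11 2.72, Rpl22 2.31, Rpl22l1 2.46, Rpl39 2.80, Rpl7 2.20, Rpl36 0.47, Rpl38 0.50 and Rps10 1.33. EV minus smoke changed sign with E1A scaling for Rplp0 -1.35, Rplp1 -0.95, Rplp2 -1.03, Rps14 -2.21, Rps27 -1.32, Rps27a -1.47, Rpl5 -2.06, Rpl11 -2.48, Rpl22 -1.76, Rpl22l1 -2.35, Rpl7 -2.04, Rpl36 -0.73, Rpl38 -0.41 and Rps12l4 -0.32. MSC minus smoke changed sign with E1A scaling for Rplp0 -2.06, Rplp1 -1.71, Rplp2 -1.61, Rps14 -2.65, Rps27 -2.17, Rps27a -2.55, Rpl3 -3.83, Rpl5 -3.32, Rpl11 -3.85, Rpl22 -2.66, Rpl22l1 -3.63, Rpl7 -3.11, Rpl8 -1.72, Rpl38 -0.95 and Rpl36 -0.83. Smoke minus naive changed sign with quantile normalization for Rplp0 0.59, Rps14 0.0031, Rpl5 0.64, Rpl11 0.69, Rpl22 0.069, Rpl39 0.51 and Rpl7 0.20. EV minus smoke changed sign with quantile normalization for Rplp0 -0.42, Rplp2 -0.0049, Rps14 -0.16, Rpl5 -0.49, Rpl11 -0.78, Rpl22l1 -0.13 and Rpl7 -0.32. MSC minus smoke changed sign with quantile normalization for Rplp0 -0.48, Rplp2 -0.042, Rpl3 -0.93, Rpl5 -0.76, Rpl11 -1.16 and Rpl7 -0.40. Smoke minus naive changed sign with cyclic loess for Rps14 0.27, Rpl5 0.62, Rpl11 0.72, Rpl22 0.29, Rpl39 0.68 and Rpl7 0.25. EV minus smoke changed sign with cyclic loess for Rps14 -0.45, Rpl5 -0.45, Rpl11 -0.82, Rpl22 -0.083, Rpl22l1 -0.26 and Rpl7 -0.42. MSC minus smoke changed sign with cyclic loess for Rpl3 -0.79, Rpl5 -0.48, Rpl11 -0.94, Rpl22l1 -0.068 and Rpl7 -0.25. Smoke minus naive changed sign with centring on the median member for Rpl5 0.099, Rpl11 0.26 and Rpl39 0.33. EV minus smoke changed sign with centring on the median member for Rps14 -0.13, Rpl11 -0.40 and Rpl22l1 -0.27. MSC minus smoke changed sign with centring on the median member for Rpl3 -0.53, Rpl5 -0.011, Rpl11 -0.55 and Rpl22l1 -0.33. Smoke minus naive changed sign with normexp for Rpl39 0.0074. EV minus smoke changed sign with normexp for Rpl11 -0.14. MSC minus smoke changed sign with normexp for Rpl3 -0.080 and Rpl11 -0.096. Smoke minus naive changed sign with the mean of probes for Rps14 0.096, Rpl5 0.91, Rpl11 0.55 and Rpl39 0.43. EV minus smoke changed sign with the mean of probes for Rps14 -0.24, Rpl5 -0.74 and Rpl11 -0.63. MSC minus smoke changed sign with the mean of probes for Rpl5 -0.82 and Rpl11 -0.70.

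Leaving out each array in turn gave 0 to 9 members higher, 12 to 36 lower and a median of -0.65 to -0.57 in smoke against naive. Leaving out each array in turn gave 1 to 28 members higher, 0 to 7 lower and a median of 0.38 to 0.46 in EV against smoke. Leaving out each array in turn gave 30 to 41 members higher, 3 to 15 lower and a median of 0.73 to 0.98 in MSC against smoke. EV against MSC had 0 to 1 members called. Smoke minus naive then ran from -0.036 to 0.062 for Rps19 and -0.057 to 0.12 for Rpl3, with a change of sign in each. EV minus smoke then ran from -0.073 to 0.079 for Rpl11 and -0.070 to 0.019 for Rps19, with a change of sign in each. MSC minus smoke then ran from -0.68 to 0.14 for Rps6, -0.87 to 0.23 for Rps19, -0.61 to 0.0018 for Rpl39, -0.014 to 0.38 for Rpl3 and -0.12 to 0.45 for Rpl11, with a change of sign in each. A fit without 1 array assumes that the lone array of its group varied like the other groups. 

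The replicate number was the row of an array on the slide. Deviations of arrays with the same number correlated at 0.03 in naive and smoke, 0.14 in smoke and EV, and -0.15 in smoke and MSC, so the numbers were not taken to pair the samples. With the replicate block in the fit, 28 members were lower and 5 higher in smoke against naive, 23 higher and 3 lower in EV against smoke, and 40 higher and 3 lower in MSC against smoke. Of 76 differences of named genes, 75 kept their direction and their side of the threshold with the block, and 1 lost its call. A crossed block for MSC against smoke, chosen after seeing the data, gave 41 members higher and 7 lower. With 2 arrays a group, the number of arrays limits the precision, and 4 residual degrees of freedom stood behind each test. All 82 probes were well above background on all 8 arrays except that of Rps12l4, so signal over background limited only Rps12l4.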
